A study of Homo sapiens with 18 samples.

Results

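ADGRL4, DKK2, LOX, NT5E, PHLDA1, PHLDA2 and TM4SF18 were the 7 genes, of 19775 measured, that were higher with basic fibroblast growth factor (bFGF) than without it at both day 10 and day 17 of neural differentiation of human embryonic stem (ES) cells. They were chosen by that rule, an adjusted p under 0.05 (limma with Benjamini-Hochberg adjustment) and a positive difference on both days. Their bFGF differences are therefore given as a description, without a test. Total RNA of H9 cells, an established human ES cell line, and of cells derived from it was measured on 1-colour Affymetrix arrays, with 3 RNA pools in each of 6 groups. The groups were undifferentiated ES cells, day 6 embryoid bodies (free-floating aggregates), day 10 neural epithelium with bFGF from day 6 to day 10, day 10 neural epithelium without it, day 17 neural epithelium with bFGF from day 6 to day 17, and day 17 neural epithelium without it. The day 17 titles call the stage definitive, and 4 of the 6 day 10 titles call it primitive. All groups come from 1 cell line. The labels give the bFGF concentration as 20 ug/ml for the day 10 pools and as 20 ng/ml for the day 17 pools, so the dose of one day cannot be set against that of the other. They list the same H9 passages for day 6 pools 1 and 2, so these pools may not come from separate cultures, and p-values measure only the spread between pools.

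bFGF is a secreted ligand that binds FGF receptor tyrosine kinases. The receptors signal through Ras to the kinases MEK and ERK, which switch on ETS and AP-1 transcription factors and also genes that dampen the signal, such as those of the Sprouty and DUSP families. FGF signalling keeps human ES cells undifferentiated in culture, and in the embryo it takes part in neural induction and in patterning the neural tube along the head-to-tail axis. The 7 genes code for proteins of the matrix and the cell surface and for intracellular regulators. LOX is the lysyl oxidase that crosslinks collagen and elastin outside the cell, and DKK2 is a secreted modulator of Wnt signalling that binds the coreceptors LRP5 and LRP6. NT5E (CD73) is a surface enzyme that turns extracellular AMP into adenosine. ADGRL4 (ELTD1) is an adhesion G protein-coupled receptor best known from blood vessels, and TM4SF18 is a membrane protein with 4 transmembrane segments, a relative of TM4SF1. PHLDA1 and PHLDA2 are small intracellular proteins with a pleckstrin homology domain, and PHLDA2 is imprinted and restrains growth of the placenta.

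Because the members move together with bFGF, the bases just upstream of their transcription starts were searched for 4 short motifs, which were chosen after the data had been seen. The sequences are from RefSeq (GRCh38.p14), which gave a promoter for 5 of the 7 genes in the table used here. Those of ADGRL4, TM4SF18 and PHLDA1 are shown, each the 250 bases before the start, read 5′ to 3′ on the gene's strand. ADGRL4 and TM4SF18 are the members with a match, and PHLDA1 is shown as the one with none whose level moved least with bFGF at both days. Capitals mark the matches: TGACTCA, a form of the AP-1 motif, and GGAATG, the TEAD motif. In TM4SF18 the TEAD motif appears as CATTCC, its complement on the opposite strand.
ADGRL4, chr1:79006731-79006980, minus strand: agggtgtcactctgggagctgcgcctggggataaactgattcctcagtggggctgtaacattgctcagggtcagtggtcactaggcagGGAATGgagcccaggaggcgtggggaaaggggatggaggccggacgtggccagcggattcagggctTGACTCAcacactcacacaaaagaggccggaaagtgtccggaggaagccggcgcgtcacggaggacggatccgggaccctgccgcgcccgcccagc
TM4SF18, chr3:149333637-149333886, minus strand: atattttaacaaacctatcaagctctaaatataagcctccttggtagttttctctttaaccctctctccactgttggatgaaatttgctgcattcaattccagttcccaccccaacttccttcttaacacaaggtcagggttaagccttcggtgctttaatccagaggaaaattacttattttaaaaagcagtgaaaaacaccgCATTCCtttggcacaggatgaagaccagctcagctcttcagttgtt
PHLDA1, chr12:76031777-76032026, minus strand: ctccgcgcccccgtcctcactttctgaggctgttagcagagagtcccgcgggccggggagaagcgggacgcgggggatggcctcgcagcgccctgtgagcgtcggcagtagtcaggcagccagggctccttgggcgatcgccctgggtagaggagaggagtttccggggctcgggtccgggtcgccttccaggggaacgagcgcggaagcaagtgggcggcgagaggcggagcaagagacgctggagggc
In the ADGRL4 sequence the TEAD match lay 162 to 157 bases and the AP-1 match 96 to 90 bases before the start. In TM4SF18 the TEAD match lay 46 to 41 bases before the start, on the strand opposite to the gene. The AP-1 motif TGANTCA was found in 1 of the 5 members' promoters and in 6.57% of 35116 promoters of the same length, and the TEAD motif GGAATG in 2 of the 5 and in 11.9%, both strands being searched and neither motif overlapping the other here. The ETS motif CCGGAAG and the CArG box of serum response factor were found in 0 of the 5, against 8.52% and 1.16% of all these promoters. The absence of these letters from these windows says nothing about the factors. LOX and NT5E, on chromosomes 5 and 6, had no match to any of the 4 motifs, and DKK2 on chromosome 4 and PHLDA2 on chromosome 11 are named only.

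The deposited signals had a 2% trimmed mean of 150.016 to 150.026 on every array, so they were compared without further scaling. Pool 2 of the 4 neural epithelium groups stood apart: its median signal was 48.7 to 50.8, against 25.2 to 32.7 on the other 14 arrays, and its low signals were raised. Pool 2 of all 6 groups also had a higher ratio of 3' to 5' ACTB signal, a sign of RNA quality, at 2.27 to 2.65 against 1.17 to 1.75 on the other 12 arrays; each bFGF comparison has 1 such pool on either side. The day 10 and day 17 groups carried their label's markers. The summed signal of 11 measured neuroepithelium markers was 29352 to 46847 on these 12 arrays and 10722 to 11585 in ES cells, and that of 8 pluripotency markers was 4288 to 8558 there and 27021 to 29728 in ES cells. All levels below are array signals and all differences are on the log2(signal + 16) scale, which understates the change of dim genes. Whether fewer cells of a type or less RNA per cell lies behind a lower signal cannot be told apart in such pools.

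At day 10, 16 genes, or 0.0809% of those tested, were higher with bFGF at an adjusted p under 0.05 in limma, and at day 17, 36 genes, or 0.182%. The 7 members are the genes in both lists, 0.0354% of all genes, and that count is set by the rule. In a fit blocked by pool number, 29 and 58 genes were higher at the 2 days, and 11 on both. All 7 members were among those 11. Across the members the bFGF difference ran from 1.22 to 3.21 log2 units at day 10, with a median of 2.16, and from 1.29 to 2.89 at day 17, with a median of 1.85. The medians over all genes were -0.02 and -0.01. The pools with bFGF lay above the pools without it, with no overlap, for all 7 members on both days, as they did for 3.14% of all genes at day 10 and 3.96% at day 17.

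TM4SF18 and PHLDA1 were just inside the threshold, with 0.0495 each as the larger of their 2 adjusted p in limma. Just outside it, by the same measure, were TFPI at 0.0626, STC1 at 0.0673, LGI1 at 0.0710, MICAL2 at 0.0837 and TM4SF1 at 0.0903, each of them higher with bFGF on both days. The membership is therefore narrow. Leaving out 1 array at a time left 5 members in the rule without untreated day 10 pool 3 or bFGF day 10 pool 2. It left 4 without pool 2 of untreated day 10, untreated day 17 or bFGF day 17, or without untreated day 17 pool 3. It left 3 without any of the other 6 arrays, namely pool 1 of untreated day 10 or untreated day 17, and pools 1 and 3 of either bFGF group. ADGRL4 and DKK2 stayed in the rule in all 12 of these fits, NT5E in 7, PHLDA2 in 6, LOX and TM4SF18 in 3 each, and PHLDA1 in 1. Without the 4 arrays with raised low signals, ADGRL4 and DKK2 stayed and the other 5 did not. With a pseudocount of 1, or with only the treated and untreated pools of a day in the fit, 0 members met the rule. A trended robust prior in limma kept 6 members, and the rule then held 9 genes. Some other settings kept all 7 and added genes. The rule then held 12 genes with a pseudocount of 64, 11 among the upper 60% of genes by mean signal, and 9 with quantile scaling.

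The secreted matrix enzyme LOX had signals of 268, 276 and 319 in the day 10 pools with bFGF, against 29.5, 39.8 and 25.1 in those without. At day 17 its signals were 525, 731 and 686 with bFGF, against 173, 190.1 and 139 without. The treated pools were the highest of the series at both days, and LOX was the one member whose bFGF, untreated and day groups of neural epithelium all lay apart from each other. Its difference was 2.68 ± 0.36 log2 units at day 10 and 1.85 ± 0.36 at day 17 (SE, n = 3 pools each). ES cells held 12.5, 90.4 and 75.4, with pool 1 well below the other pools, and day 6 aggregates 26.9, 14.3 and 23.4. The title of ES pool 1 names an RNA extraction method (Trizol with RNeasy), as no other title does. Whether its RNA was prepared differently is not known here.

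The Wnt modulator DKK2 was near the bottom of the scale before neural differentiation, at 0.677 to 4.61 in ES cells and 0.918 to 11.3 in day 6 aggregates. With bFGF its signals were 131, 106 and 218 at day 10, against 13.9, 15.6 and 27.4 without. At day 17 they were 170.3, 300.3 and 234 with bFGF, against 42.5, 32.4 and 58.6 without. The treated pools of both days overlapped each other, and every treated pool lay above every untreated one of either day. The difference was 2.23 ± 0.28 at day 10 and 2.04 ± 0.28 at day 17.

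The receptor ADGRL4 had the largest bFGF difference of the 7 at both days. Its signals were 299, 204 and 306 in day 10 pools with bFGF, against 24.1, 3.13 and 20.3 without. At day 17 they were 193, 251 and 129 with bFGF, against 8.80, 6.68 and 19.3 without. The treated groups of the 2 days overlapped and stood far above all 4 other groups, which overlapped one another from neighbour to neighbour. ES cells held 30.1, 12.01 and 45.4, and day 6 aggregates 0.852, 3.35 and 15.2. The difference was 3.21 ± 0.36 at day 10 and 2.89 ± 0.36 at day 17.

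NT5E, the adenosine-producing surface enzyme, had signals of 66.3, 124 and 68.8 with bFGF at day 10, against 2.53, 4.15 and 19.4 without. At day 17 they were 87.0, 91.8 and 68.2 with bFGF, against 2.71, 13.0 and 1.89 without. All 6 treated pools lay above all 6 untreated pools, and the treated range overlapped that of ES cells, at 26.1, 77.4 and 56.2. The day 6 pools, at 12.3, 1.62 and 2.17, overlapped the untreated pools of both days. The difference was 2.07 ± 0.34 at day 10 and 2.20 ± 0.34 at day 17.

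TM4SF18, the membrane protein, had 71.9, 107 and 71.0 with bFGF at day 10, against 18.1, 26.7 and 25.6 without. At day 17 it had 67.8, 98.4 and 77.9 with bFGF, against 12.2, 13.4 and 28.4 without. Its treated groups overlapped each other and the ES cell pools, which held 86.2, 95.3 and 121 and had the highest mean of the 6 groups. The day 6 pools held 12.7, 24.9 and 17.2 and overlapped the untreated pools. The difference was 1.32 ± 0.23 at day 10 and 1.54 ± 0.23 at day 17. In the gene order of chromosome 3, the next protein-coding gene after TM4SF18 is its relative TM4SF1, which had 506 ± 45.3 with bFGF and 54.2 ± 49.2 without at day 10, and 456 ± 39.6 with bFGF and 83.0 ± 41.3 without at day 17 (SD, n = 3).

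PHLDA1, the first of the intracellular pair, had signals of 335, 267 and 478 with bFGF at day 10, against 139, 138 and 145 without. At day 17 it had 471, 509 and 595 with bFGF, against 208, 187 and 217 without. ES cells, at 535, 534 and 841, had the highest mean and overlapped the treated day 17 pools, and the treated day 10 pools overlapped those of day 6, at 413, 372 and 365. The difference was 1.22 ± 0.22 at day 10 and 1.29 ± 0.22 at day 17.

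PHLDA2, the imprinted growth regulator, had 395, 573 and 787 with bFGF at day 10, against 97.9, 123 and 121 without. At day 17 it had 419, 621 and 417 with bFGF, against 181, 165 and 191 without. The treated groups overlapped each other and the ES cell pools, at 325, 394 and 419. The day 6 pools, at 104, 93.3 and 63.7, had the lowest mean and overlapped the untreated day 10 pools. The difference was 2.16 ± 0.25 at day 10 and 1.34 ± 0.25 at day 17.

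**Figure D1:**
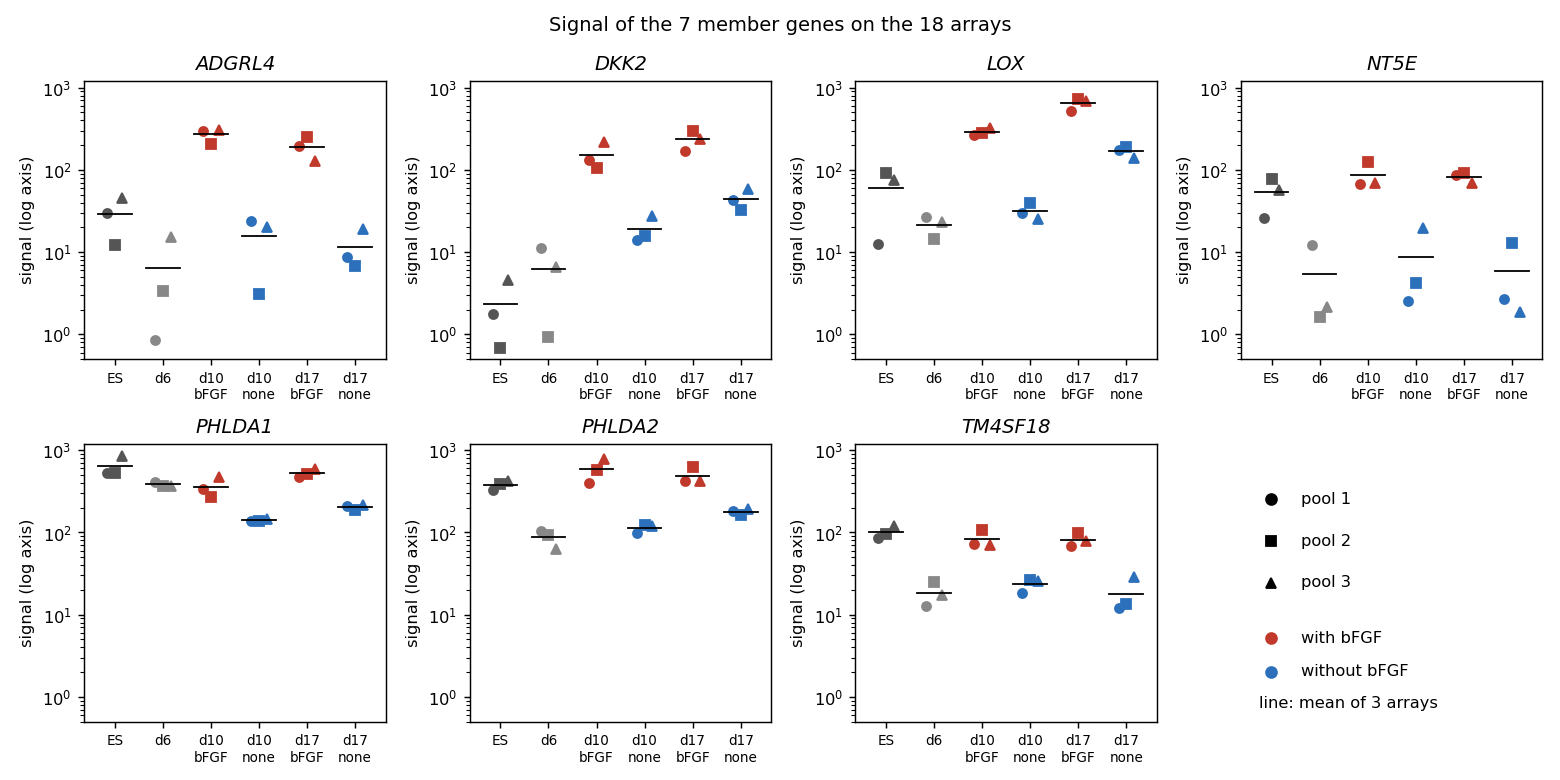
Array signal of the 7 genes (log axis) in each of the 18 RNA pools, by group, with 1 panel per gene and 1 point per pool; short lines mark the means. In every panel the 3 pools with bFGF sit above the 3 pools without it at day 10 and again at day 17.

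The sizes of the bFGF differences at the 2 days were set against each other. The day 17 difference minus the day 10 difference was -0.84 ± 0.51 log2 units for LOX, -0.82 ± 0.35 for PHLDA2, -0.33 ± 0.50 for ADGRL4 and -0.18 ± 0.40 for DKK2. It was 0.22 ± 0.33 for TM4SF18, 0.13 ± 0.47 for NT5E and 0.07 ± 0.31 for PHLDA1. The untreated signal was also higher at day 17 than at day 10 for LOX (1.95), DKK2 (0.79), PHLDA2 (0.59) and PHLDA1 (0.49), and only LOX passed that test. With bFGF, LOX differed by 1.12 between the days and PHLDA2 by -0.23. Limma's test of the day 17 bFGF difference against that of day 10 was passed by 0 of all 19775 genes after adjustment. In it 631 had an unadjusted p under 0.05, and 1 passed in a fit blocked by pool number. A p that misses the threshold does not show that the days were alike, and the labelled dose units also differ between the days.

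Known targets of ERK signalling, the pathway that FGF receptors activate, were measured beside the members. Of 20 measured ERK targets, 0 were called higher at day 10 and 7 at day 17 (DUSP6, SPRY1, SPRY2, SPRY4, ETV4, IER3 and IL17RD), and 0 were called lower on either day. Over all genes, 0.0809% were called higher at day 10 and 0.182% at day 17. The median difference over the list was 0.23 at day 10 and 0.48 at day 17. Without bFGF, 10 of the 20 were called higher at day 10 than at day 6 (median 0.94), against 3.73% of all genes. From day 10 to day 17, 3 of the 20 were called lower without bFGF (median -0.53), against 106 of all genes. With bFGF, 0 were called between these days (median 0.12). DUSP6, the phosphatase that inactivates ERK, differed by 0.65 ± 0.36 at day 10, where it did not pass. It was higher with bFGF at day 17 by 2.82 ± 0.36 (adjusted p = 0.00231 in limma), with mean signals of 3374 with bFGF and 460 without. SPRY1, an inhibitor of receptor tyrosine kinase signalling, differed by 0.26 at day 10 and was higher with bFGF by 2.40 at day 17 (adjusted p = 0.00123 in limma). SPRY4 and ETV4 were higher with bFGF at day 17 by 2.06 and 2.12 (adjusted p = 0.00806 and 0.0321) in limma. The SPRY4 call was lost without bFGF pool 1 or untreated pool 2 of day 17 (adjusted p = 0.0551 and 0.0514). The day 10 differences of SPRY4 and ETV4 were 0.84 and 0.85. IER3, at 1.35 at day 10 and 1.79 at day 17, lay inside the members' range on both days. The ETV4 call was lost in 5 of the 6 fits that left out 1 day 17 array, all but that without bFGF pool 2 (adjusted p up to 0.202). DUSP6 and SPRY1 kept their calls in all 6. The calls of SPRY2, IER3 and IL17RD are not given fit by fit here. Over all the gene lists used here, 8 genes were called at day 17, and 3 to 8 in these 6 fits. No gene of the ERK target list passed the test of its bFGF difference at day 17 against that at day 10.

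**Figure D2:**
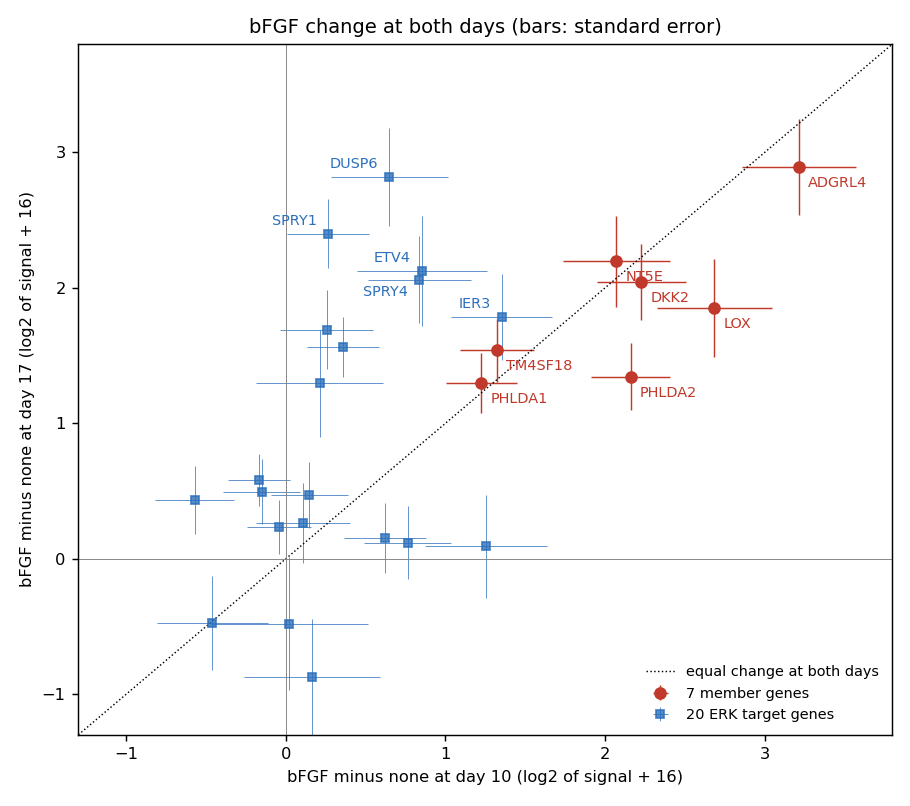
Difference between pools with bFGF and pools without it at day 10 (x axis) and day 17 (y axis), both on the log2(signal + 16) scale, for the 7 members (circles) and the 20 ERK targets (squares, 5 of them labelled); bars are standard errors and the dotted diagonal marks equal differences. The members lie between 1.22 and 3.21 at day 10 and between 1.29 and 2.89 at day 17, where the rule placed them; of the labelled ERK targets, IER3 lies at 1.35 and 1.79, and the other 4 lie at 0.26 to 0.85 at day 10 and 2.06 to 2.82 at day 17.

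Day 6 aggregates were compared with ES cells to see where the members stood before the labelled bFGF treatment, which began at day 6. Whether the ES cells were grown with bFGF is not known here. The means compared come from none of the arrays of the rule, but the fit takes each gene's spread from all 18 arrays, so these p-values are not independent of the choice. In a fit of the 6 ES and day 6 arrays alone the same 3 members passed. NT5E, TM4SF18 and PHLDA2 fell between ES cells and day 6. PHLDA2 differed by -1.95 ± 0.25 log2 units (adjusted p = 0.000133), TM4SF18 by -1.77 ± 0.23 (0.000186) and NT5E by -1.66 ± 0.34 (0.00788), all in limma. These are 3 of 7 members called lower, against 1.66% of all genes. When probe sets were averaged per gene, TM4SF18 passed and PHLDA2 and NT5E did not (-0.69 and -0.79, adjusted p = 0.396 and 0.0651), while LOX did (-1.05, adjusted p = 0.0146). The pools lay apart, with day 6 lower, for these 3 and PHLDA1, 4 of 7 members, against 9.77% of all genes. PHLDA1 differed by -0.68 ± 0.22 and missed the threshold (adjusted p = 0.122). ADGRL4 differed by -0.99 ± 0.36 (adjusted p = 0.183), LOX by -0.81 (0.337) and DKK2 by 0.26 (0.860). With the brightest probe set, LOX passed without ES pool 1, its low ES array, at -1.41 (adjusted p = 0.00293). The median over the members was -0.99, and that over all genes -0.00.

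From day 6 the cells went on with bFGF or without it. These comparisons, and those of day 17 with day 10 below, use the day 10 or day 17 arrays that also chose the members, so their p-values are not independent of the choice. With bFGF, 6 of the 7 members were called higher at day 10 than at day 6, against 4.29% of all genes. ADGRL4 rose by 3.70 log2 units (adjusted p = 5.87e-06), LOX by 3.03 (4.66e-05), DKK2 by 2.89 (6.18e-06) and PHLDA2 by 2.51 (7.07e-06). NT5E rose by 2.25 (0.000401) and TM4SF18 by 1.53 (0.000449), while PHLDA1 differed by -0.12 ± 0.22 (0.827). The same 6 members had pools apart from day 6, against 14.8% of all genes.

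Without bFGF, 1 member passed the test between day 10 and day 6. PHLDA1 fell, with a difference of -1.35 ± 0.22 log2 units (adjusted p = 0.000899), the 1 member called lower, against 2.64% of all genes. No member was called higher, against 3.73% of all genes. The other 6 differed by 0.18 for NT5E, 0.21 for TM4SF18, 0.34 for LOX, 0.35 for PHLDA2, 0.48 for ADGRL4 and 0.66 for DKK2, with adjusted p of 0.213 to 0.823. Of the members, PHLDA1 was thus called lower than at day 6 without bFGF, and the other 6 were called higher than at day 6 with it. For NT5E, PHLDA2 and TM4SF18 the treated day 10 means were 86.4, 585 and 83.5, against 5.36, 87.1 and 18.3 at day 6, with ES cells at 53.2, 380 and 101.

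**Figure D3:**
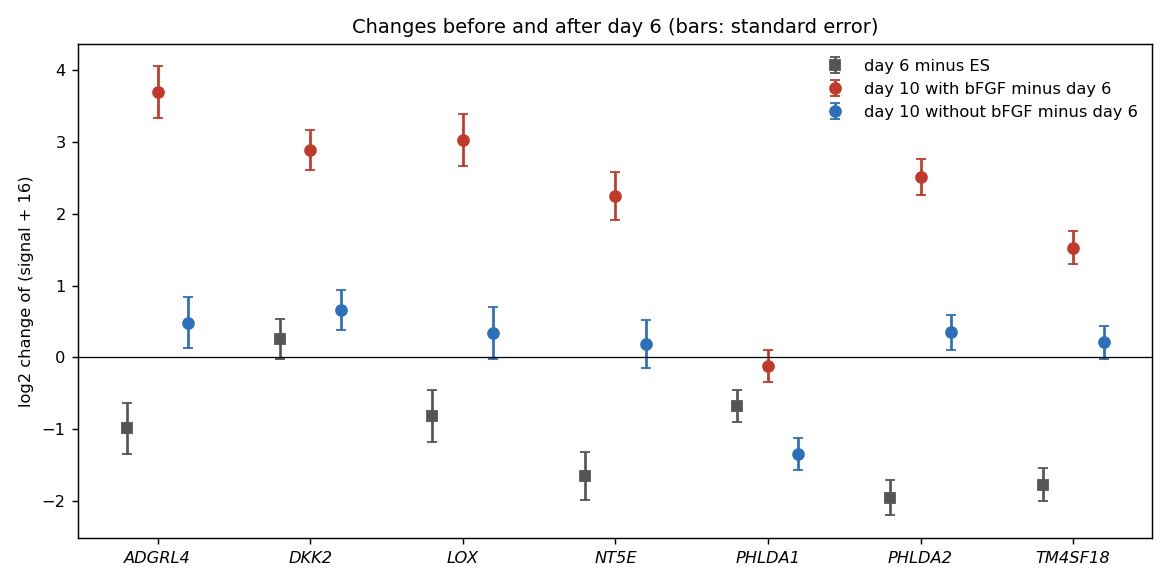
Difference of each member between day 6 and ES cells (grey squares), between day 10 with bFGF and day 6 (red circles) and between day 10 without bFGF and day 6 (blue circles), on the log2(signal + 16) scale with standard errors. The red points of 6 members lie between 1.53 and 3.70, while PHLDA1 has its red point at -0.12 and its blue point at -1.35.

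Between day 10 and day 17, 1 member passed the test without bFGF and 0 passed it with bFGF. Without bFGF, LOX rose by 1.95 ± 0.36 log2 units (adjusted p = 0.00802), 1 of 7 members called higher against 1.45% of all genes, or 287 (519 in a fit blocked by pool number); without the 4 arrays with raised low signals it differed by 1.99 and missed the threshold (adjusted p = 0.0711). The untreated day 17 pools lay above the untreated day 10 pools, without overlap, for DKK2, LOX, PHLDA1 and PHLDA2, 4 of 7 members, against 7.29% of all genes. DKK2 differed by 0.79 (adjusted p = 0.246), PHLDA2 by 0.59 (0.408) and PHLDA1 by 0.49 (0.472). TM4SF18, ADGRL4 and NT5E differed by -0.24, -0.16 and -0.15, with none past the test.

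With bFGF, 0 of 7 members passed between day 17 and day 10, against 0.662% of genes called higher and 0.389% called lower, or 131 and 77 (265 and 181 in a fit blocked by pool number); over all genes 1445 had an unadjusted p under 0.05 in limma. LOX was the furthest, at 1.12 (adjusted p = 0.246), and the 1 member of 7 whose day 17 pools all lay above those of day 10, against 6.06% of all genes; it passed with a pseudocount of 64 (1.01, adjusted p = 0.0179). DKK2 differed by 0.60, PHLDA1 by 0.56, PHLDA2 by -0.23 and ADGRL4 by -0.49. NT5E and TM4SF18 both differed by -0.02.

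Each value above rests on the probe set with the highest mean signal of its gene, and 6 of the members have others on the array, 14 in all. Of these 14, 11 were higher with bFGF at day 10 and 12 at day 17, and the pools lay apart, with bFGF higher, in 7 at day 10, 6 at day 17 and 5 at both. LOX's other probe sets differed by 1.97 and 1.06 at day 10 and by 1.30 and 0.97 at day 17. The 5 others of PHLDA1 differed by 0.45 to 1.29 at day 10 and by 0.42 to 1.21 at day 17, and TM4SF18's by 1.48 at day 10 and 1.12 at day 17. The other probe set of DKK2 did not follow the kept one, at -0.36 ± 0.48 at day 10 and 0.57 ± 0.48 at day 17 with a mean signal of 23.8. The others of PHLDA2 differed by 0.14 and -0.07 at day 10 and by 0.15 and -0.17 at day 17, at mean signals of 29.8 and 5.18. NT5E's lay between -0.00 and 0.64 at day 10 and between -0.19 and 0.60 at day 17. ADGRL4 has 1 probe set and no such check. When probe sets were averaged per gene instead, 2 of the 7 members passed the rule.

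**Figure D4:**
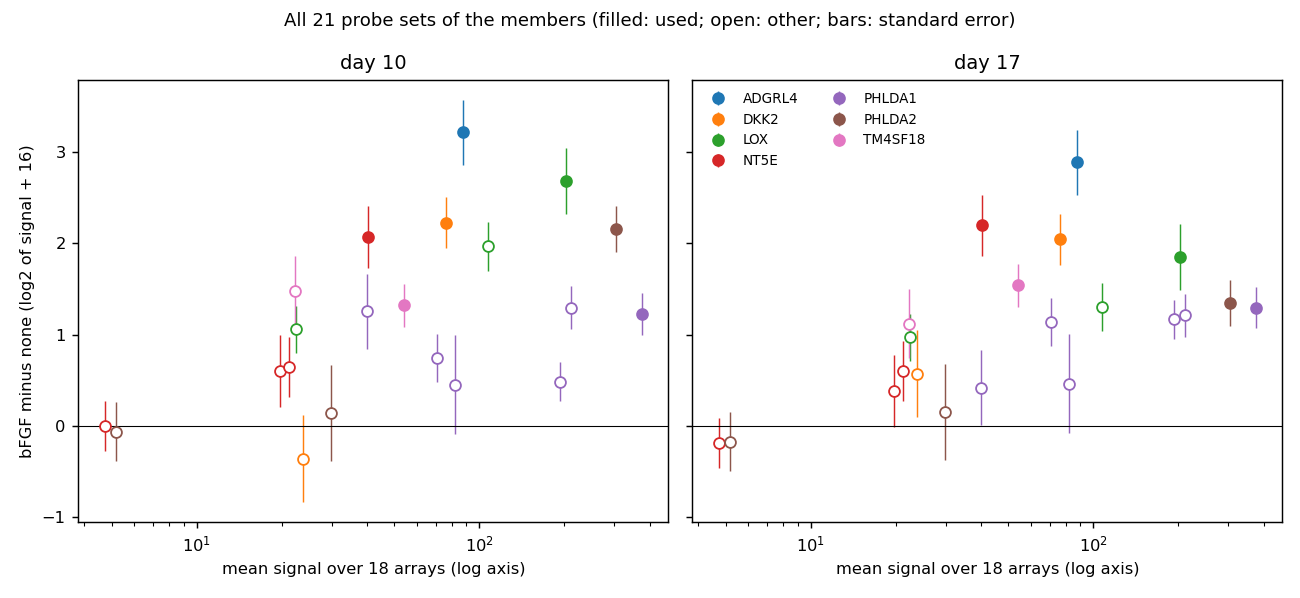
Difference between pools with bFGF and pools without it (y axis, log2 of signal + 16, with standard errors) against the mean signal over the 18 arrays (x axis, log scale) for all 21 probe sets of the 7 genes, at day 10 (left) and day 17 (right); filled points are the probe sets used and open points the others. The open points of NT5E and PHLDA2 at the lowest mean signals lie at -0.00 and -0.07 at day 10 and at -0.19 and -0.17 at day 17.

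Relatives and partners of the members were measured beside them. The members are all the genes called higher on both days, so none of these other genes could be. Of 8 other genes of the DKK family and its coreceptors, 0 were called at either day, with medians of 0.26 at day 10 and -0.24 at day 17. Of 17 genes of the LOX family and collagen crosslinking, 0 were called; the medians were 0.44 and -0.06. BMP1, the protease that activates lysyl oxidase, differed by 0.96 and -0.10. Of 13 measured genes that handle extracellular ATP and adenosine, 0 were called, and ENTPD1 (CD39), which makes the AMP that NT5E uses, differed by 0.24 at day 10 and 1.21 at day 17. Of 9 other adhesion receptors 0 were called, with ADGRG6 at 1.36 and -0.26. Of 5 other relatives of PHLDA1 and PHLDA2 0 were called, with medians of -0.03 and -0.08. Of 4 other measured TM4SF genes TM4SF1 was called at day 10 (3.21 ± 0.52, adjusted p = 0.0265), a call lost in 5 of the 6 fits that left out 1 array, all but that without untreated day 10 pool 2 (adjusted p up to 0.157). Of 15 measured targets of serum response factor and YAP, EDN1 (endothelin) was called at day 10 at 1.80 (adjusted p = 0.0411), also lost in 5 of 6 such fits, all but that without bFGF day 10 pool 2 (adjusted p up to 0.297), and 0 were called at day 17. The median over these 15 targets was 0.52 at day 10 and 0.06 at day 17, against -0.02 and -0.01 over all genes. All these counts stand beside 0.0809% of all genes called higher at day 10 and 0.182% at day 17.

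Several members are known from blood vessels, mesenchyme or trophoblast, so markers of other cell types were measured beside them. Of 14 endothelial markers 0 were called at either day, and 9 had a mean signal under 50. Their median difference was 0.27 on each day, against -0.02 and -0.01 over all genes. Their summed signal was 693 to 999 with bFGF and 500.3 to 749.9 without at day 10, and 565 to 929.7 with bFGF and 412 to 605 without at day 17. The ranges overlapped, but within same-numbered pools the sum was higher with bFGF in 3 of 3 at day 10 and in 3 of 3 at day 17. This endothelial sum was highest in undifferentiated ES cells, at 951 to 1298, and was 523 to 742 in day 6 aggregates. CDH5, a junction protein of endothelium, differed by 1.06 and 0.29, and KDR by 0.82 and 0.91, none past the test. Of 12 measured mesenchyme markers 0 were called at day 10 and PRRX1 at day 17 (2.18, adjusted p = 0.0129), a call lost without bFGF pool 1 or 3 or untreated pool 2 or 3 of day 17 (adjusted p up to 0.102). TWIST1 differed by 1.73 and 1.502 without passing. The mesenchyme sum was 1356 to 2450.4 with bFGF and 911 to 2419 without at day 10, and 1666 to 3476 with bFGF and 1933 to 3634 without at day 17, and it was higher with bFGF in 3 of 3 same-numbered pools at day 10 and in 1 of 3 at day 17. Of 9 trophoblast, 10 neural crest, 11 neuroepithelium and 8 pluripotency markers measured, 0 were called on either day. The neural crest sum at day 10 was 2259 to 3139 with bFGF and 1776 to 2892 without. At day 17 it was 2287 to 3356 with bFGF and 2175 to 2829 without. It was higher with bFGF in 3 of 3 same-numbered pools at day 10 and in 2 of 3 at day 17. For the pluripotency sum these counts were 1 of 3 and 2 of 3. The trophoblast sum was 582 to 860.4 with bFGF and 584 to 1060.3 without at day 10, and 387 to 699 with bFGF and 611 to 692 without at day 17, higher with bFGF in 1 of 3 same-numbered pools on each day. The neuroepithelium sum was 29539.9 to 35689.6 with bFGF and 30452 to 46847 without at day 10, and 29352 to 35664 with bFGF and 31528 to 41470.4 without at day 17. These ranges overlapped as well, but within same-numbered pools the neuroepithelium sum was higher with bFGF in 0 of 3 on either day. The part of any other cell type in the members' differences was not tested.

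How closely the members resembled one another across the whole series differed from pair to pair. Over the 18 arrays the 21 pairs of members had Pearson correlations of 0.119 (DKK2 and PHLDA1) to 0.906 (DKK2 and LOX), with a median of 0.683. These arrays share groups, treatment and labelled stage, and the members were chosen for 1 shared pattern, so the values are a description. Among 7963 genes with an SD above 0.5 over the arrays, NT5E was most like PHLDA2 (0.9003) and TM4SF18 (0.880), and PHLDA2 was most like CD44 (0.902) and NT5E. TM4SF18 was most like NT5E, PHLDA2 (0.874) and KDR (0.838). LOX was most like DKK2, GNG11 (0.902) and RFTN1 (0.9003), and DKK2 most like LOX, JAG1 (0.896) and GNG11 (0.893). ADGRL4 was most like SPRY4-IT1 (0.850), TM4SF1 (0.838) and TLR4 (0.834), and PHLDA1 most like STC1 (0.840), AKR1C3 (0.833) and EDIL3 (0.808). The closest pairs thus shared 1 of 2 patterns, that of NT5E, PHLDA2 and TM4SF18, high in ES cells and again with bFGF, and that of DKK2 and LOX, both highest with bFGF at day 17.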

How the data were processed

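Total RNA pools (3 per group, 18 arrays) were measured on Affymetrix arrays with 54675 probe sets. The authors deposited 1 linear intensity (signal) per probe set and array; the summarisation and scaling software is not given in the sources used here, and the common trimmed mean was read from the values. The platform annotation pairs 41097 probe sets with 1 gene and 1801 with several; 11777 are unnamed here. The brightest probe set naming 1 gene was kept, giving 19775 genes. Without detection calls, low signals have no bound, and precision is limited by how many arrays there are.

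Groups and pool numbers follow the titles, except that the group of ES pool 1 comes from its description and its number from accession order, and 1 bFGF day 10 pool carries another number in its description. limma 3.58.1 (R 4.3.3) was fitted to log2(signal + 16) over all arrays, leaving 12 residual degrees of freedom, with Benjamini-Hochberg adjustment over 19775 genes, after being tested on simulated data. Pool numbers were tried as a block. Deviations of same-numbered pools correlated at 0.394 to 0.668 (bFGF, day 10), 0.317 to 0.653 (bFGF, day 17), 0.365 to 0.621 (untreated day 17 against day 10) and 0.326 to 0.655 (the same with bFGF), so the numbers were taken to pair these pools. In each of these comparisons the highest correlation was that of pool 2, whose arrays had raised low signals. An effect shared by arrays also gives such correlations, so they cannot show that same-numbered pools share a culture. The fit behind the rule and the main values does not use this pairing, and blocked values are named as such. The correlations so far are for the comparisons whose pools were taken as pairs. The correlations were 0.0749 to 0.337 (untreated day 10 against day 6) and 0.0898 to 0.284 (bFGF day 10 against day 6), which did not all pass 0.1. For day 6 against ES cells they were 0.209 to 0.383, but the labels give other passages for ES pool 2 than for day 6 pool 2 and no number for ES pool 1, so these pools were not taken as pairs. Further settings were the compared groups alone, a pseudocount of 1 or 64, quantile scaling, the mean of probe sets, a trended robust prior, the upper 60% of genes by mean signal, leaving out 4 arrays, and leaving out each array in turn.

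The members, gene lists and comparisons were chosen with earlier results of these data known. Named genes are the members, those nearest the rule's threshold, up to 4 of each list with the largest change, and the 3 most correlated with each member; SPRY2, IER3 and IL17RD are named beyond this rule, after their values were seen.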

Additional observations from a re-analysis of the deposited data

How the results depend on the processing

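The members' bFGF differences stayed positive in all 15 alternatives run at each day, from 0.44 (PHLDA2, day 17, mean of probe sets) to 4.35 (ADGRL4, day 10, pseudocount of 1), but the calls did not hold. Of the 7 members, 0 were called at day 10 and 0 at day 17 with the compared groups only, 1 and 2 with a pseudocount of 1, 2 and 3 with the mean of probe sets, and 3 and 3 without the 4 arrays with raised low signals. At both days these gave 0, 0, 2 and 2. Over all genes, 17 were called at day 10 and 67 at day 17. These counts became 0 and 0 with the compared groups only, 2 and 20 with a pseudocount of 1, 9 at day 10 with the mean of probe sets, and 4 at day 10 without the 4 arrays. Of the 2 list genes called at day 10, 0 were called in each of these 4 settings, and of the 8 at day 17, 4 with a pseudocount of 1 and 0 with the compared groups only. Blocking by pool number gave 3 list genes at day 10 and 10 at day 17. With the pool number as a block (replicate block), 34 genes were called at day 10, 120 at day 17, 1454 instead of 762 for day 6 against ES cells, 2512 instead of 1259 for untreated day 10 against day 6, 2824 instead of 1394 for bFGF day 10 against day 6, 754 instead of 393 for untreated day 17 against day 10, and 446 instead of 208 for the same with bFGF. The block changed the call of PHLDA1 for day 6 against ES cells (adjusted p = 0.0326), where the numbers do not pair the pools, and of no other member. With the compared groups only, untreated day 10 against day 6 gave 647, untreated day 17 against day 10 gave 34 and the same with bFGF 6. For the last 2 comparisons a pseudocount of 1 gave 226 and 113, and leaving out the 4 arrays 229 and 106. LOX, untreated, lost its day 17 call without the 4 arrays, which left 0 members there, and gained 1 with bFGF at a pseudocount of 64.

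Leaving out 1 array gave 3 to 5 members at day 10, 4 to 5 at day 17, and 3 to 5 at both. It gave 3 to 4 for day 6 against ES cells, 1 for untreated day 10 against day 6, 6 for bFGF day 10 against day 6, 1 for untreated day 17 against day 10, and 0 for the same with bFGF. Over all genes it gave 3 to 13 at day 10, 22 to 45 at day 17, 462 to 615 for day 6 against ES cells, 842 to 1033 and 921 to 1068 for day 10 against day 6 without and with bFGF, and 206 to 311 and 113 to 146 for day 17 against day 10 without and with bFGF. For the list genes it gave 0 to 2 and 3 to 8.

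Of 525 values of the members in time comparisons, 501 kept direction and side of the threshold. In 17 the sign turned, none of them past the test. Under the mean of probe sets these were PHLDA1 for bFGF day 10 against day 6 (0.093), DKK2 (-0.024) and NT5E (0.12) for untreated day 17 against day 10, and NT5E with bFGF (0.040). Under quantile scaling TM4SF18 gave -0.059 for untreated day 10 against day 6. Without the 4 arrays, PHLDA1 gave 0.063 for bFGF day 10 against day 6, and NT5E 0.16 and TM4SF18 0.020 for day 17 against day 10 with bFGF. The others turned without 1 array. Their ranges were -0.11 to 0.40 for NT5E in untreated day 10 against day 6, -0.34 to 0.063 for PHLDA1 in bFGF day 10 against day 6, and -0.50 to 0.040 for ADGRL4 and -0.37 to 0.14 for NT5E in untreated day 17 against day 10. With bFGF they were -0.16 to 0.23 for NT5E, -0.48 to 0.0046 for PHLDA2 and -0.15 to 0.14 for TM4SF18. The causes were not tested. With dim signals and no detection calls, differences near 0 are not resolved.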
